A study of Mus musculus with 8 samples.

Results

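The 9 genes described here encode ATF4 and the proteins that work with it: the transcription factors ATF4, ATF5, ATF3, CHOP (gene Ddit3), C/EBPβ (Cebpb), C/EBPγ (Cebpg) and JDP2, the chromatin-associated stress protein NUPR1 and the pseudokinase TRIB3. They were picked by name as the ATF4 network, with earlier results of these data known. They were found by gene symbol among the 21859 Ensembl gene IDs of the count table. Ddit3 has a second ID that lies wholly inside the span of the other and had 0 counts, so the symbols fall on 10 rows and each gene is described by 1 of them. PER-M60, a leukaemia line of the mouse, was cultured under both conditions of the study, and RNA of 8 samples was sequenced. Control medium was given to 4 of them. The other 4 received osteoclast-conditioned medium, meaning medium that was collected from bone-resorbing osteoclasts. The labels give no time in culture, dose of medium, driver lesion or number of clones for either group, and they do not say whether the replicates are separate cultures started independently. P-values therefore measure the spread between these samples, which may be technical.

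ATF4 is the main effector of the integrated stress response. When kinases that sense amino acid shortage, unfolded protein, haem deficiency or double-stranded RNA phosphorylate the translation factor eIF2α, most protein synthesis slows while translation of Atf4 mRNA, which carries upstream open reading frames, goes up. ATF4 is a basic leucine zipper (bZIP) protein: it binds DNA only as a dimer, often with a C/EBP protein, at composite C/EBP-ATF response elements near genes of amino acid synthesis, transport and tRNA charging. Because much of this control is translational, mRNA counts such as these do not measure ATF4 protein.

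All 9 genes were higher in osteoclast-conditioned medium, and in none did the samples of the media overlap. With edgeR's quasi-likelihood test, each had a Benjamini-Hochberg adjusted p under 0.05 over the 10729 genes tested, a call that 15.7% of all tested genes received in the same direction and 30.5% in either. Groups did not overlap for 28.2% of the tested genes, and for 15.2% they did not overlap and were higher in osteoclast-conditioned medium. The rises differed widely in size. Atf4 itself rose least, 1.17-fold, and Cebpg 1.20-fold, while Atf5 rose 2.03-fold, Nupr1 2.30-fold and Trib3 3.00-fold. Cebpb had the largest fold change, 5.50-fold, at the lowest counts. It passed the low-count filter through the osteoclast-conditioned samples alone, since 0 control samples and 4 osteoclast-conditioned samples reached the filter's 0.576 CPM (counts scaled to a common library total). A gene that enters in this way had to differ, whereas the other members each passed the filter in both media. Since the members were chosen with earlier results of these data known, the count of called members is a description.

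**Figure D1:**
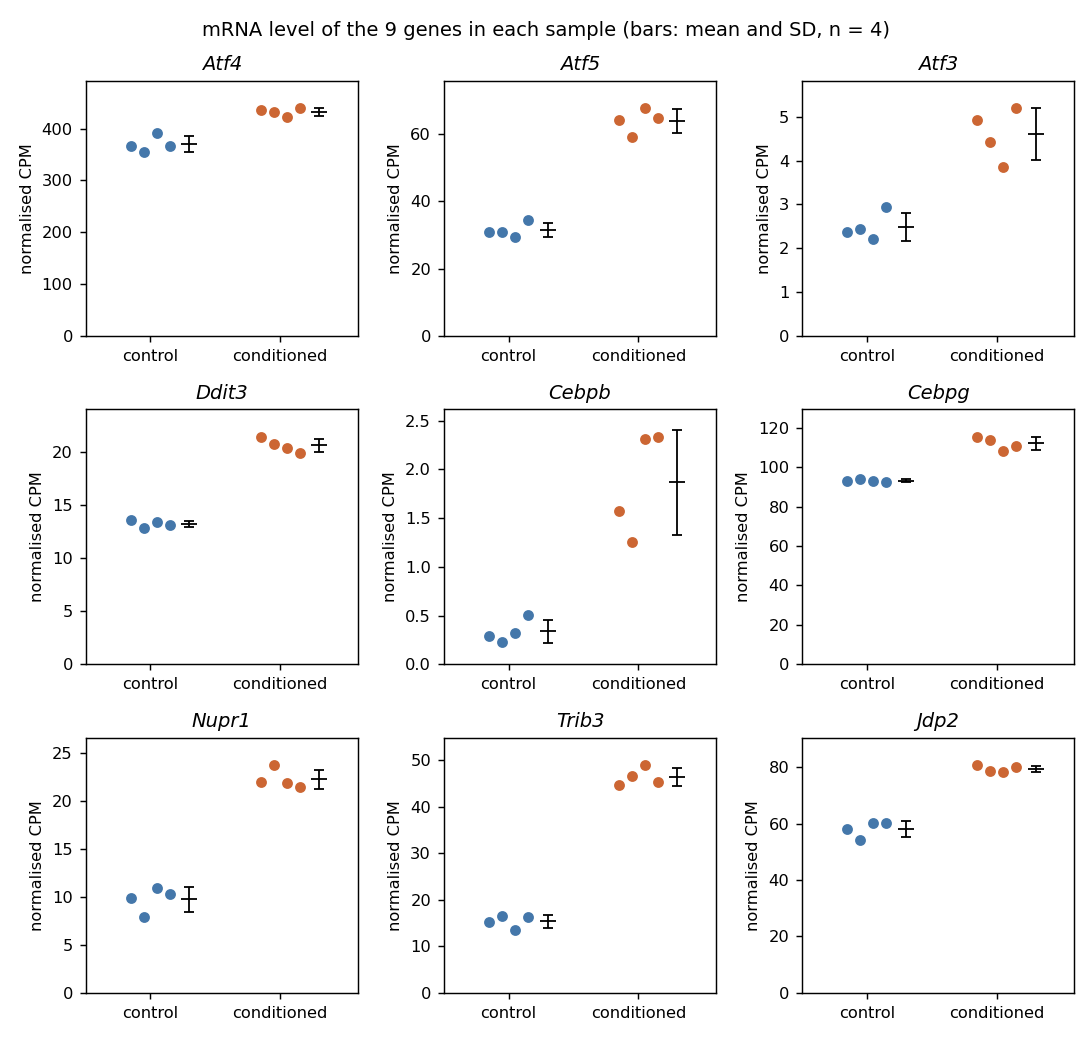
Each panel shows 1 gene, with TMM-normalised CPM on a linear axis from 0, and 1 point per sample in control (blue) and osteoclast-conditioned medium (orange); black bars are mean and SD of 4 samples. In each panel the lowest osteoclast-conditioned sample lies above the highest control sample, with the narrowest relative gap for Atf4 (391 against 422 CPM).

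Total counts ran from 15391754 to 21637966 per sample, and a floor of 3 counts corresponded to 0.138 to 0.194 CPM. As a check of the label, 12 B-lineage markers were summed. They reached 4110 to 4134 CPM in control and 4310 to 4330 CPM in osteoclast-conditioned medium, with 5 of 10 tested markers called higher and 2 lower, beside 15.7% and 14.8% of all tested genes. Rag1 and Rag2 were at 0, but both lie inside another listed gene, and of 889 genes so placed 888 (99.9%) were at 0, so these zeros are no measure of expression. The 13 osteoclast and macrophage markers summed to 51.4 to 54.6 CPM in control and 50.7 to 56.1 CPM in osteoclast-conditioned medium, with 4 of the 13 passing the filter. Nearly all of the sum came from Acp5 (22.9 ± 1.51 against 24.4 ± 1.42 CPM), Mrc1 (14.3 ± 0.413 against 14.7 ± 0.993 CPM) and Itgb3, which fell from 12.9 ± 1.41 to 10.7 ± 0.376 CPM (SD, n = 4 each; edgeR adjusted p = 0.0185). Ocstamp and Dcstamp were at 0 in all samples and Csf1r at 0 to 6 counts. The part of these markers in the members' results was not tested.

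The composite element that ATF4 and C/EBP proteins share was looked for as the letters TGATGNAA on both strands, in the 300 bases from 250 before to 50 after each RefSeq transcription start (GRCm38.p6). All 9 genes had an entry, with 12 starts in all. The letters were present at 4 of these starts, in 4 genes (Atf3, Trib3, Nupr1 and Jdp2), and at 3.97% of the 32851 mouse starts, or in 4.51% of 27025 genes. The sites of these 4 genes are shown as 30-base windows because they are a sequence feature that these genes share and that the choice of members did not use. All are printed on the plus strand of the chromosome, 5′ to 3′, with the 8 matching bases in capitals.
Atf3, chr1:191183425-191183454: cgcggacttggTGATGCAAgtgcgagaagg
Nupr1, chr7:126625562-126625591: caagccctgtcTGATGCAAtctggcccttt
Jdp2, chr12:85599372-85599401: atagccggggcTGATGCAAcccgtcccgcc
Trib3, chr2:152344028-152344057: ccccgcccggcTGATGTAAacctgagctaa
Atf3, Nupr1 and Jdp2 share the same 8 letters, and Trib3 differs from them at the free position. The match starts at position -110 from the start in both Atf3 and Nupr1, at -33 from 1 of the 3 starts of Jdp2, and 15 bases into the transcript of Trib3. For Atf3, Nupr1 and Trib3 it reads TGATG on the strand opposite to the gene, and for Jdp2 on the gene's own strand.

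For wider context, the Atf3 promoter from position -250 to -51 (chr1:191183384-191183583, minus strand) is given in the direction of the gene, so that the site appears as its reverse complement in capitals.
Atf3 promoter: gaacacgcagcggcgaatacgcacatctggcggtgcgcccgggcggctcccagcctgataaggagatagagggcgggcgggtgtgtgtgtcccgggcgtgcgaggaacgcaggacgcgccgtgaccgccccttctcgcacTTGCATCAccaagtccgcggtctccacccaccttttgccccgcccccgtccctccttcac
The letters of the cAMP response element (TGACGTCA, at 1.79% of starts), of a C/EBP site (TTGCNNAA, at 10.8%) and of the ER stress response element (CCAAT and CCACG with 9 free bases between them, at 0.119%) were found in none of the 9 genes' windows. A match describes letters and not a bound site, and its absence here concerns only this window. Rises of the genes with the element ran from 0.45 (Jdp2) to 1.58 (Trib3) on the log2 scale, and those of the genes without it from 0.23 (Atf4) to 1.02 (Atf5), leaving out Cebpb, which passed the low-count filter through osteoclast-conditioned medium alone. These ranges overlap.

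Atf4 (ENSMUSG00000042406; chromosome 15, 80255184 to 80257541, plus strand, in GRCm38) was the most abundant member. It had 367, 354, 391 and 366 normalised CPM in control replicates 1 to 4 and 437, 433, 422 and 439 CPM in osteoclast-conditioned replicates 1 to 4. The media did not overlap, and control replicate 3 was nearest to the other group. The mean went from 370 ± 15.6 to 432 ± 7.68 CPM (SD, n = 4 each), or by 0.23 on the log2 scale (SE 0.03, edgeR adjusted p = 3.04e-07). This was the smallest fold change among the 9 genes but the largest gain in reads, 62.9 CPM. By size of rise Atf4 was number 886 of the 10729 tested genes.

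Atf5 encodes the closest relative of ATF4, also translated through upstream open reading frames and linked to the mitochondrial stress response. It had 31.0, 30.9, 29.5 and 34.4 CPM in the control replicates and 64.2, 59.1, 67.7 and 64.7 CPM in the osteoclast-conditioned replicates. Each osteoclast-conditioned sample thus held more than 1.5 times the level of the highest control sample. With a rise of 1.02 on the log2 scale (SE 0.05, edgeR adjusted p = 7.14e-16), Atf5 was number 29 of the tested genes by size of rise. Of its exon bases, 12.9% lie in the spans of the opposite-strand genes Nup62 and Il4i1. Their own levels were low, with a total of 7 counts for Nup62 and 1.53 ± 0.15 against 1.25 ± 0.125 CPM for Il4i1 (SD, n = 4 each).

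Of the partners in the C/EBP family, Cebpg encodes a short C/EBP protein that lacks a transactivation domain and pairs with ATF4. It had 93.0, 94.2, 92.7 and 92.5 CPM in control medium and 115, 114, 108 and 111 CPM in osteoclast-conditioned medium. These were the tightest control values of any member, with a coefficient of variation of 0.817%. Cebpg thus rose by 0.27 on the log2 scale (SE 0.03, edgeR adjusted p = 1.65e-07).

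Cebpb, an intronless gene for a C/EBP activator that is prominent in myeloid cells, was near the limit of detection. Its raw counts were 5, 5, 5 and 9 in the control replicates and 31, 21, 43 and 40 in the osteoclast-conditioned replicates, 159 in all. All 4 control samples lay below all 4 osteoclast-conditioned samples, which themselves spread from 1.26 to 2.33 CPM. Cebpb rose by 2.46 on the log2 scale (SE 0.30, edgeR adjusted p = 1.89e-07), the number 2 rise among the tested genes. Because Cebpb passed the filter through osteoclast-conditioned medium alone, its p-value and rank are given as a description. A 60.4% share of its exon bases lies in the span of Tmem189 on the opposite strand. Reads in such shared spans appear to have been largely left uncounted, since 888 of 889 genes wholly inside another listed gene were at 0. The level of Cebpb may therefore be understated. Tmem189 itself had 58 counts in total and 0.316 ± 0.109 against 0.496 ± 0.0899 CPM (SD, n = 4 each). It did not pass the filter.

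Other C/EBP genes gave little signal: Cebpa was at 0 in all samples, where the floor allows up to 0.194 CPM, and Cebpd had 0 to 10 counts per sample. A list of 12 C/EBP-dependent and myeloid lineage genes summed to 3.95 to 5.17 CPM in control and 5.14 to 6.95 CPM in osteoclast-conditioned medium. Only Lyz2 (lysozyme) could be tested, and it rose from 4.46 ± 0.406 to 5.91 ± 0.865 CPM (log2 fold change 0.40, SE 0.12, edgeR adjusted p = 0.0119). Cebpa, Elane, Itgam, S100a8, S100a9 and Ltf were at 0, although Itgam lies almost entirely inside other listed genes. The part of these low levels in the Cebpb result was not tested. In a bulk sample, more cells of a type and more RNA per cell cannot be told apart.

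Ddit3 encodes CHOP, a C/EBP-like factor that dimerises with other bZIP proteins and promotes cell death under prolonged stress. It had 13.6, 12.9, 13.4 and 13.1 CPM in the control replicates and 21.4, 20.8, 20.3 and 19.9 CPM in the osteoclast-conditioned replicates. The spread within each medium was small beside the gap between media. Ddit3 rose by 0.64 on the log2 scale (SE 0.06, edgeR adjusted p = 3.45e-09). Of its exon bases, 10.1% lie in the span of the second Ddit3 ID or of the opposite-strand gene Mars, which changed by 0.10 on the log2 scale (SE 0.03, edgeR adjusted p = 0.00772).

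Atf3, induced in many stresses and able to repress as a homodimer, was scarce. Its raw counts were 40, 53, 34 and 52 in control medium and 97, 74, 72 and 89 in osteoclast-conditioned medium. In CPM the highest control sample had 2.93 and the lowest osteoclast-conditioned sample 3.87. The resulting log2 fold change was 0.88 (SE 0.14, edgeR adjusted p = 1.55e-05), the least precise value after that of Cebpb.

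Jdp2, which encodes a close relative of ATF3 that represses AP-1 sites, was expressed far more. It had 58.0, 54.1, 60.3 and 60.2 CPM in control medium and 80.7, 78.5, 78.4 and 80.0 CPM in osteoclast-conditioned medium. The rise of Jdp2 was 0.45 on the log2 scale (SE 0.04, edgeR adjusted p = 1.89e-10). Within osteoclast-conditioned medium no other member had such uniform values, with a coefficient of variation of 1.41%.

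The cofactors that are not bZIP proteins had large rises. Nupr1, a small stress protein induced by ATF4, had 9.89, 7.89, 10.9 and 10.3 CPM in the control replicates and 21.98, 23.7, 21.9 and 21.4 CPM in the osteoclast-conditioned replicates. The lowest value was that of control replicate 2. Its log2 fold change was 1.20 (SE 0.08, edgeR adjusted p = 8.53e-13).

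Trib3, a pseudokinase that binds ATF4 and restrains it in a feedback loop, had 15.2, 16.5, 13.5 and 16.3 CPM in control medium and 44.6, 46.6, 48.9 and 45.3 CPM in osteoclast-conditioned medium. The log2 fold change was 1.58 (SE 0.06, edgeR adjusted p = 5.38e-19), the number 15 rise among the tested genes and the smallest p-value among the members. The other Tribbles genes stayed near 0 change: Trib1 had a log2 fold change of 0.05 (SE 0.05, adjusted p = 0.434) and Trib2 of -0.01 (SE 0.09, adjusted p = 0.963) in the edgeR fit. Trib1 had 44.5 ± 2.66 against 46.2 ± 2.03 CPM and Trib2 7.77 ± 0.611 against 7.75 ± 0.511 CPM (SD, n = 4 each).

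Levels of different genes were compared per kilobase of annotated exon, over the union of all GENCODE M21 exons of a gene. On this scale Atf4 had 157 ± 6.61 CPM per kb in control medium and Jdp2 followed with 27.1 ± 1.34 (SD, n = 4 each). Cebpg (16.6 ± 0.135) and Atf5 (15.8 ± 1.05) came next and overlapped each other. Ddit3 (7.72 ± 0.181) and Trib3 (7.23 ± 0.651) also overlapped, followed by Nupr1 (3.88 ± 0.526), Atf3 (1.15 ± 0.146) and Cebpb (0.226 ± 0.079).

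In osteoclast-conditioned medium the order changed in the middle. Atf4 was again highest at 183 ± 3.26 CPM per kb, with Jdp2 at 37.0 ± 0.523. Atf5 (32.1 ± 1.79) and Trib3 (21.8 ± 0.89) then lay above Cebpg (19.9 ± 0.562) and Ddit3 (12.03 ± 0.378), with no overlap between neighbours in that order (SD, n = 4 each). The lowest levels were those of Nupr1 (8.85 ± 0.402), Atf3 (2.14 ± 0.272) and Cebpb (1.24 ± 0.358). Union exon lengths, from 1504 bases for Cebpb to 5621 for Cebpg, overstate the transcript of a gene with several isoforms, so the order is approximate. For Cebpb, 60.4% of these bases lie in the span of Tmem189, where reads may not have been counted. Its level per kb may therefore be understated, and its place below Atf3 is uncertain.

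Ratios of a pair of members within the same sample show whether they changed by different amounts, without any scaling between samples. Of 6 ratios computed, 5 are between genes that passed the filter in both media, and these 5 were all higher in osteoclast-conditioned medium without overlap. Each had p = 0.0286 in a two-sided exact permutation test, the smallest that 4 against 4 samples allow, and adjusted p = 0.0286 over the 6. Atf5 reads went from 0.0755 to 0.0942 per Atf4 read in control samples to 0.137 to 0.161 in osteoclast-conditioned samples, a difference of 0.80 on the log2 scale. Trib3 reads per Atf4 read went from 0.0345 to 0.0465 up to 0.102 to 0.116 (difference 1.37).

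The ratio of Ddit3 to Atf4 shifted least (log2 difference 0.41, with means of -4.80 ± 0.05 and -4.39 ± 0.05, SD, n = 4 each). Trib3 and Ddit3 reads were nearly equal in control medium, at 1.00 to 1.28 Trib3 reads per Ddit3 read. In osteoclast-conditioned medium there were 2.08 to 2.40 (log2 difference 0.96). The other ratio, of Cebpb to Cebpg, is given as a description, since Cebpb passed the filter through osteoclast-conditioned medium alone. It went from 0.00269 to 0.00579 Cebpb reads per Cebpg read up to 0.0113 to 0.0216, a log2 difference of 2.11. The ratio of Atf3 to Jdp2 gave the narrowest separation, with a highest control value of 0.0492 and a lowest osteoclast-conditioned value of 0.0496, and a log2 difference of 0.43. Leaving out any sample other than osteoclast-conditioned replicate 3 gave an exact p of 0.0571 for this ratio, with the log2 difference between 0.36 and 0.49. Without replicate 3 it was 0.50 (exact p = 0.0286).

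**Figure D2:**
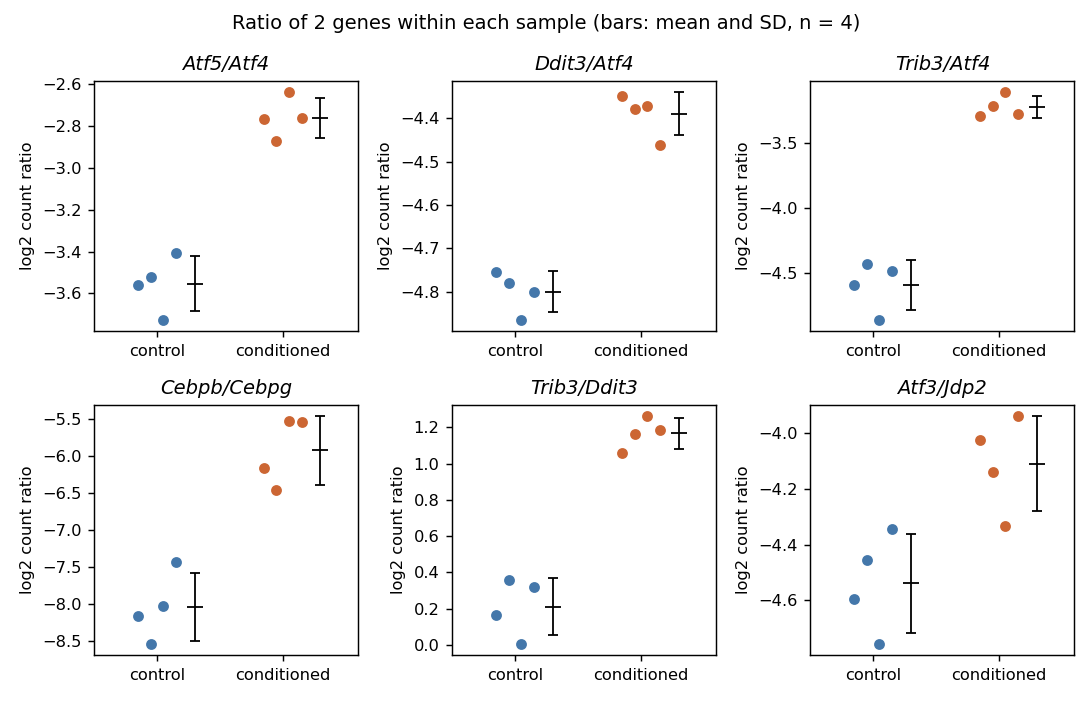
Each panel shows the log2 ratio of the counts of 2 genes (0.5 added to each) in each sample, in control (blue) and osteoclast-conditioned medium (orange), with mean and SD of 4 samples in black; axes do not start at 0. The groups are apart in all 6 panels, widely for Trib3/Atf4 (difference 1.37) and barely for Atf3/Jdp2.

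Of 45 other bZIP genes listed, 4 were at 0 in all samples, 9 fell below the filter and 32 were tested. Of these, 8 were called higher and 2 lower, beside 15.7% and 14.8% of all tested genes. The median log2 fold change was 0.04, beside -0.01 over all tested genes. The largest rises at 5 CPM or more were those of Nfe2l1 (0.37, SE 0.03), which controls proteasome genes, of Atf6 (0.30, SE 0.03), a sensor of unfolded protein in the endoplasmic reticulum, and of Dbp (0.24, SE 0.09). Creb3l2 (-0.39, SE 0.13) and Atf6b (-0.11, SE 0.04) fell. Nfe2l2, the NRF2 factor, rose by 0.13 (SE 0.03). No change was called for Xbp1 (0.05, SE 0.04), Creb1 (-0.06, SE 0.03), Junb (0.02, SE 0.04) or Jun (-0.15, SE 0.07). The element TGATGNAA was found in 0 of the 33 listed bZIP genes that have promoter entries, beside 4.51% of all 27025 genes.

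Targets of ATF4 that are not transcription factors rose with the members. Of 38 listed genes, 32 were tested, 30 were called higher and 0 lower, with a median log2 fold change of 0.34. The list was chosen with earlier results of these data known, so these counts are a description. Of all tested genes, 15.7% were called higher and 14.8% lower. The largest rises were those of Aldh1l2 (1.99, SE 0.08) of mitochondrial folate metabolism, the stress-induced gene Fam129a (1.70, SE 0.05), Cth (1.10, SE 0.04), which makes cysteine, and Sesn2 (1.01, SE 0.06), a leucine sensor. Asns, the asparagine synthetase, rose from 130 ± 2.78 to 182 ± 2.56 CPM and Chac1, which degrades glutathione, from 7.32 ± 0.602 to 13.5 ± 0.769 CPM (SD, n = 4 each). Ddit4, an inhibitor of mTORC1, had 49.0 ± 2.63 against 49.98 ± 2.90 CPM (log2 fold change 0.03, SE 0.05, edgeR adjusted p = 0.647). Beside 4.51% of all 27025 genes, 9 of the 29 target genes with promoter entries held the element TGATGNAA. The 7 of these that were tested (Asns, Chac1, Vldlr, Pycr1, Aars, Gars and Yars) all rose, by 0.25 (Yars) to 0.94 (Vldlr). The others are Fgf21, which fell below the filter, and the cystine transporter Slc7a11, which was at 0 counts in all samples. All 32 tested targets, whether among the 9 or not, had a positive log2 fold change. Aldh1l2, Fam129a, Cth and Sesn2, with the largest rises, are not among the 9.

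mRNAs of the machinery upstream of ATF4 changed in both directions and by little. Among 12 genes for eIF2α kinases, phosphatase subunits and activators, 5 were called higher, 3 lower and 4 neither, with log2 fold changes between -0.22 and 0.33. Of all tested genes, 15.7% were called higher and 14.8% lower. Eif2ak4, the amino acid sensor GCN2, fell by 0.17 (SE 0.04, edgeR adjusted p = 0.000965), and Eif2ak3, the endoplasmic reticulum sensor PERK, had -0.02 (SE 0.04). Ppp1r15a, the inducible phosphatase subunit GADD34, rose by 0.33 (SE 0.06), Impact by 0.20 (SE 0.05) and Dele1, which relays mitochondrial stress, by 0.19 (SE 0.03). Oma1 fell by 0.22 (SE 0.08, edgeR adjusted p = 0.0488) and Eif2s1 by 0.08 (SE 0.03, edgeR adjusted p = 0.0327).

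Of 10 regulators of ATF4 protein, 3 were called higher and 1 lower, with 30.5% of all tested genes called in either direction. Crebbp (0.34, SE 0.04), Usp9x (0.22, SE 0.03) and Ep300 (0.21, SE 0.03) rose. Egln3, a prolyl hydroxylase that destabilises ATF4, fell from 30.8 ± 3.19 to 21.2 ± 0.834 CPM (SD, n = 4 each; log2 fold change -0.54, SE 0.06).

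Genes attributed to individual members gave a mixed picture. Of 9 tested CHOP target and cell death genes, 4 were called higher, led by Bbc3 (0.58, SE 0.09), which encodes the death protein PUMA, Ppp1r15a and the survival gene Bcl2 (0.29, SE 0.04). The oxidase gene Ero1l fell by 0.17 (SE 0.04). Of 8 mitochondrial chaperone and protease genes linked to ATF5, Hspa9 rose by 0.19 (SE 0.02) and 3 fell: Htra2 by 0.22 (SE 0.04), Lonp1 by 0.08 (SE 0.03) and Hspd1 by 0.08 (SE 0.03). Without control replicate 4, or without osteoclast-conditioned replicate 1, 3 or 4, the number of called genes in this list was 2 in place of 4. Among targets of ATF6 and XBP1, which serve protein folding in the endoplasmic reticulum, 10 of 16 were called lower and 5 higher, with a median log2 fold change of -0.27. Sdf2l1 (-0.53, SE 0.04), Hspa5 (-0.51, SE 0.03) and Creld2 (-0.43, SE 0.05) fell, while Herpud1 (0.34, SE 0.03), Edem1 (0.30, SE 0.03) and Dnajb9 (0.23, SE 0.07) rose. Over all tested genes, 15.7% were called higher and 14.8% lower. The higher share of all calls was 51.6%, and 40.7% when libraries were scaled by total counts alone, under which the 9 members were again all called higher.

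**Figure D3:**
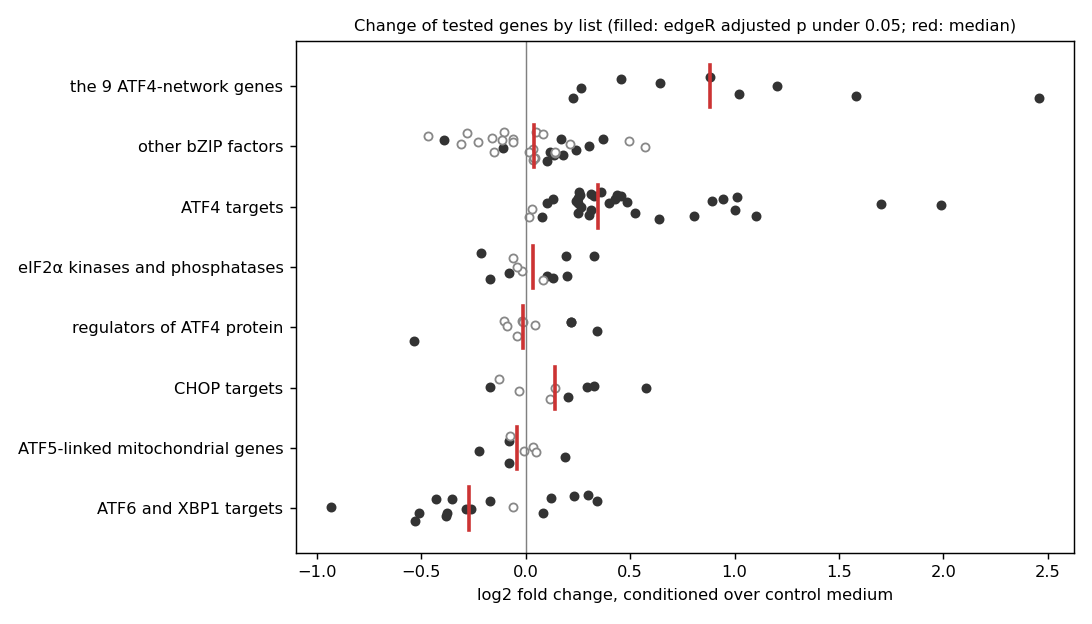
Each point is a tested gene, placed by its log2 fold change (osteoclast-conditioned over control medium) in the row of its list; filled points have an edgeR adjusted p under 0.05, open points do not, and red lines mark medians. The 9 genes and the ATF4 targets lie to the right of 0, the targets with a median of 0.34, while the other bZIP factors centre on 0.04 and the ATF6 and XBP1 targets on -0.27.

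The members are spread over 6 chromosomes, with Cebpg, Atf5 and Nupr1 on chromosome 7 and Cebpb and Trib3 on chromosome 2. The nearest tested gene on each side of a member was examined to see whether rises extended to the neighbourhood, a comparison chosen after the values were seen. Of 18 neighbours, 3 were called higher, near the 15.7% of all tested genes, and 0 lower, with a median log2 fold change of 0.04 and a range of -0.31 to 0.21. Atf4 lies between Mief1 (0.01, SE 0.05) and Rps19bp1 (0.02, SE 0.06). Jdp2 lies between the bZIP genes Fos (0.21, SE 0.32) and Batf (0.04, SE 0.06), and Trib3 between Rbck1 (0.04, SE 0.03) and H13 (0.09, SE 0.03, edgeR adjusted p = 0.0397). Rnf114, the tested gene before Cebpb at a gap of 173 kb, rose by 0.20 (SE 0.04, edgeR adjusted p = 0.000104). Gaps ran from 0 kb (Atf5 to Il4i1) to 325 kb (Trib3 to H13), and genes that were not tested may lie within them.

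**Figure D4:**
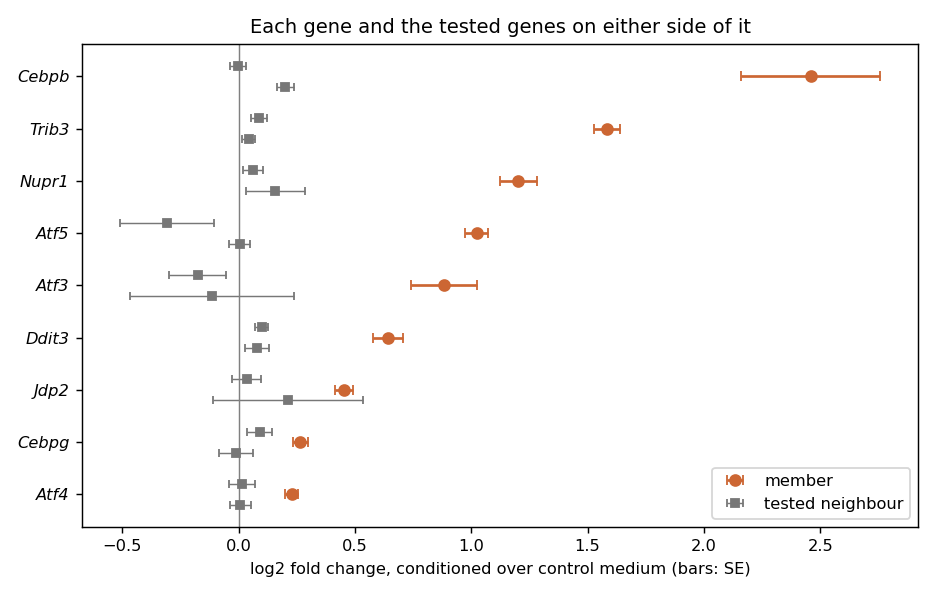
Log2 fold changes (osteoclast-conditioned over control medium, bars SE) of each member (orange circles) and of the tested genes on either side of it on the chromosome (grey squares), with members ordered by size of change. Each member lies to the right of its neighbours, whose values run from -0.31 to 0.21.

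The genes whose log2 CPM profile over the 8 samples was most like that of a member, among genes of at least 5 CPM, are given by Pearson's r as a description. Since the samples fall into 2 groups, r mostly reflects the difference between media. Trib3 was matched most closely by Pck2 (r = 0.998), the mitochondrial enzyme that forms phosphoenolpyruvate, and Xpot (0.998), the tRNA exporter. Ddit3 was matched by Pde4dip (0.997) and the alanyl-tRNA synthetase gene Aars (0.996), Nupr1 by Mib2 (0.994) and Aars (0.992), and Atf5 by Gpt2 (0.995), an alanine transaminase, and Arhgap31 (0.995). Cebpg was matched by Brap (0.995) and Rhobtb2 (0.993), and Jdp2 by Abcc4 (0.993) and Fyn (0.993). The matches of Atf4 were Tut4 (0.986) and Slu7 (0.985), the least close among these 7 members. Atf3 and Cebpb, below 5 CPM, were not matched.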

How the data were processed

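The deposited table gives counts as whole numbers, unnormalised, for 1 Ensembl gene ID per row. Per the submitters' processing notes the tools named are STAR 2.7.5a and featureCounts 2.0.1 with the build mm10, while the annotation and strand setting are not given in the sources used here. The labels' protocols name a spin-column kit for the RNA and SureSelect HS2 for the libraries. Each column was assigned through the number in its header (0 unassigned). Symbols and positions came from GENCODE M21 on GRCm38 (21817 of 21859 IDs matched), and promoter sequences from RefSeq on GRCm38.p6.

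Media were compared in edgeR 4.0.16 (R 4.3.3) with filterByExpr, TMM, robust glmQLFit with medium as the term over all 8 samples, glmQLFTest, and Benjamini-Hochberg adjustment over the 10729 tested genes (threshold 0.05). Standard errors are the absolute log2 fold change divided by the square root of F. Ratios used log2 of counts with 0.5 added and exact permutation over 70 assignments. No member fell below the filter, so the planned exact test of such members was not needed.

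The 12 lists, of which the members are 1 (183 symbols, 2 matched through a synonym), and the ratios were chosen with earlier results of these data known. Named from each list were called genes averaging 5 CPM or more, those with the largest changes (3 each way, 4 for ATF4 targets), plus a fixed set reported whatever their result; Slc7a11, Fgf21, the other targets with the element and the neighbours were named after their values were seen. Alternatives were other scalings, filters and tests (DESeq2 1.42.0, limma 3.58.1), the replicate block, a stricter threshold, other added counts, and leaving out each sample.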

Additional observations from a re-analysis of the deposited data

How the results depend on the processing

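The log2 fold changes of the 9 genes kept their sign and an adjusted p under 0.05 in each of 17 alternative fits (16 for Cebpb, which had no value with a mean of at least 50 counts). For Cebpb this is a description, since it passed the main filter through osteoclast-conditioned medium alone. Ranges were 0.21 to 0.26 for Atf4, 0.24 to 0.28 for Cebpg, 0.42 to 0.48 for Jdp2, 0.62 to 0.66 for Ddit3, 0.82 to 0.97 for Atf3, 0.99 to 1.07 for Atf5, 1.10 to 1.26 for Nupr1, 1.53 to 1.62 for Trib3 and 2.28 to 2.73 for Cebpb. At an adjusted p under 0.01, 2147 genes were called in place of 3273, with 6 other bZIP factors in place of 10 and 2 ATF5-linked mitochondrial genes in place of 4. Leaving out 1 sample gave from 2 to 4 called genes in that mitochondrial list, with 2 without control replicate 4 or without osteoclast-conditioned replicate 1, 3 or 4. Scaling by total counts made 40.7% of called genes higher, against 51.6% with TMM, and the 9 members were higher under both.

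Same-numbered samples share only a number: their deviations from the group means correlated from -0.051 to 0.14, and 3 of 8 samples correlated best with their own number. With the replicate block 3446 genes were called, the 9 members among them. For the ratios, the replicate block flips the signs of 4 paired differences, which cannot give less than p = 0.125; all 6 had that exact p, with log2 differences of 0.80 (Atf5/Atf4), 0.41 (Ddit3/Atf4), 1.37 (Trib3/Atf4), 2.11 (Cebpb/Cebpg), 0.96 (Trib3/Ddit3) and 0.43 (Atf3/Jdp2). Leaving out 1 sample gave 0.36 to 0.50 for Atf3/Jdp2. The cause of these changes was not tested. Depth limits Cebpb and Atf3 most, with 159 and 511 counts over all samples.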
